A study of Homo sapiens with 48 samples.

Results

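Dual SMAD inhibition, which drives human embryonic stem cells toward neural ectoderm, was compared with untreated stem cells in 8 of the 48 RNA libraries of the series, 4 in each group. The libraries were chosen by their labels and not by any measured value. Both groups were grown from the WiCell WA09 line, also known as H9, an established line of embryonic stem cells of normal genotype. The ectoderm group was kept for 6 days in E6 medium with LDN-193189 (100 nM) plus A83-01 (2 µM), and the stem cell group, called hESC here, received no treatment. The medium of the untreated cells is not given in the sources used here, so the change of medium and days of culture cannot be told apart from the inhibitors. The study made the ectoderm cultures, together with mesoderm and endoderm cultures grown for 5 days with STEMdiff kits, as positive controls for lineage genes beside embryoid bodies that were treated with Y-27632 or CEPT. RNA was measured by RASL-Seq, a targeted assay: 2 DNA probes anneal next to each other on a messenger RNA held on an oligo-dT plate, and their ligation product is sequenced. The panel held 1113 probes for 452 genes, and the reads of all probes of a gene were summed.

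LDN-193189 inhibits the type I receptors of bone morphogenetic proteins (BMPs), and A83-01 inhibits those of activin, Nodal and TGF-beta. These receptor families signal through different SMAD transcription factors, and blocking both is a common way to turn pluripotent cells into neural ectoderm, since Nodal and activin signalling maintains NANOG in human pluripotent cells and BMP signalling favours epidermis over neural plate. Neural plate cells are known by PAX6, SOX1 and SOX2, their forebrain part by FEZF1, SIX3 and OTX2, and the border that gives rise to roof plate and neural crest by PAX3, LMX1A and SNAI2.

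Totals ranged from 2283016 to 3334662 reads in ectoderm and from 1773969 to 2801704 in hESC, a difference that did not pass an exact permutation test (two-sided, p 0.171). The 10 highest genes took 63.1% ± 1.02 of the reads in ectoderm and 60.2% ± 1.24 in hESC (SD, n = 4 each; exact permutation p 0.0286, the smallest this design allows). The labels do not say whether the 4 libraries of a group came from separate cultures, so p-values measure the spread between these libraries, which may be technical. Levels are given as CPM, read counts scaled to library sizes that were adjusted by TMM. They compare libraries for the same gene, not different genes, because probes differ in efficiency. A level of 3 reads, the number that a count of 0 allows, corresponds to 0.852 to 1.48 CPM in these libraries, a limit for counting error only. The RNA is from whole cultures, so fewer cells of a type and less RNA per cell cannot be told apart.

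Ectoderm replicate 4 stood apart in genes that are high in endoderm. Of the 11 genes with a mean of at least 1000 CPM in endoderm and at least 100 times their ectoderm median, 10 were highest in replicate 4 among the ectoderm libraries. LEFTY2, which encodes a secreted inhibitor of Nodal, was at 2.16, 1.50, 29.6 and 236 CPM in ectoderm replicates 1 to 4, and LEFTY1, its neighbour and close relative, at 0.721, 0.301, 3.25 and 26.97 CPM. NPPB, a natriuretic peptide gene, was at 7.57, 8.72, 8.12 and 31.5 CPM in the same order. Of 4 endoderm markers, GATA6 and SOX17 were also highest in replicate 4, at 8.52 and 3.12 CPM. FOXA2 had at most 1 read in any ectoderm library. HHEX was at 2.88, 5.11, 2.44 and 5.39 CPM in replicates 1 to 4, so replicate 4 was close to replicate 2. The summed level of SOX17, FOXA2 and GATA6, without HHEX, was 1.80, 2.41, 2.44 and 11.6 CPM in ectoderm replicates 1 to 4. In endoderm this sum was 6083 to 6487 CPM. The levels of the 11 genes in replicate 4 were between 0.0642% and 0.444% of their endoderm means, with a median of 0.187%, where the medians of the other ectoderm libraries were 0.0498% to 0.0590%. Carry-over of RNA or reads from endoderm wells into this library was not tested. Results that rest on replicate 4 are given with and without it.

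**Figure D1:**
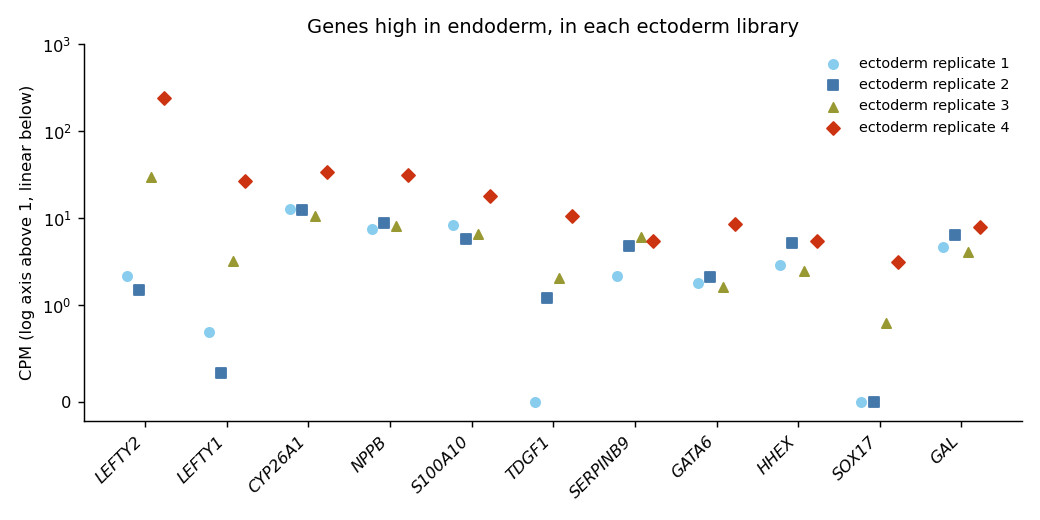
Level in each of the 4 ectoderm libraries (points, CPM; the axis is logarithmic above 1 and linear below) of the 11 genes that had at least 1000 CPM in endoderm and at least 100 times their ectoderm median. Replicate 4 is the highest ectoderm library for 10 of the 11, with SERPINB9 as the exception.

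Most of the panel differed between the 2 groups. Of 387 genes with enough reads to test, 333 (86%) had an adjusted p under 0.05 in the quasi-likelihood test of edgeR, adjusted by Benjamini and Hochberg. Of the 387, 183 (47.3%) were higher and 150 (38.8%) lower in ectoderm. With the libraries scaled on 5 reference genes instead, 65.6% of the calls were higher, against 55.0% here. The libraries of the groups did not overlap for 325 genes (84%). Among the called genes, 251 had a change of at least 1 on the log2 scale in either direction, of which 139 were higher and 112 lower. A change of at least 3 was found for 116, with 70 higher and 46 lower. Because so many genes of this panel changed, a count of members within a gene list is to be read against these shares. Of the 281 called genes with several tested probes, 275 had all probes in the same direction.

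**Figure D2:**
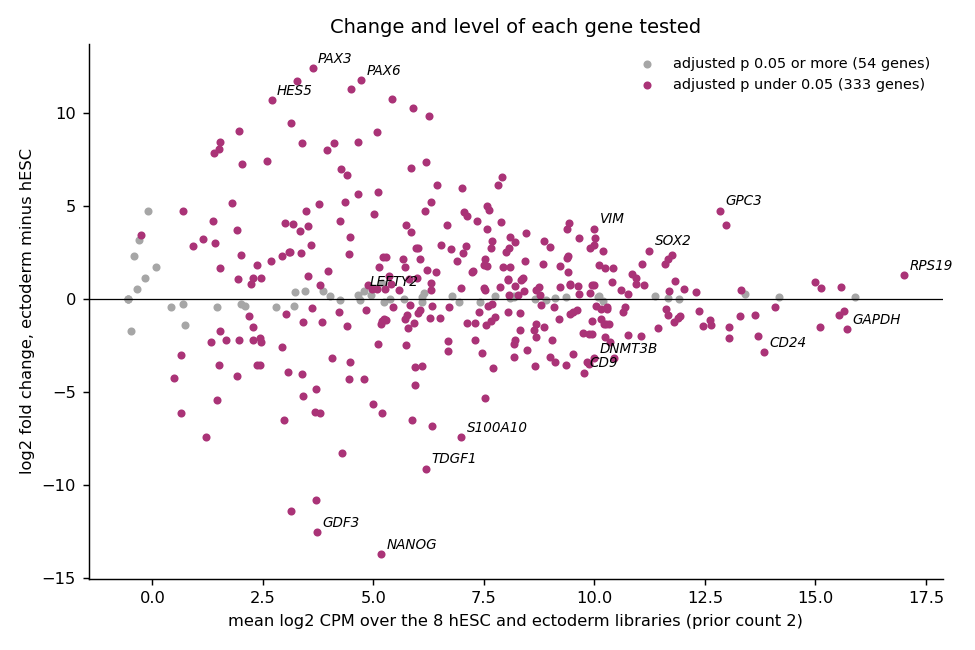
Log2 fold change of ectoderm against hESC (vertical) against the mean log2 CPM over the 8 libraries (horizontal) for the 387 genes tested, coloured by whether the adjusted p is under 0.05. The 333 called genes lie on both sides of 0 at every level, and the largest changes belong to genes that are near 0 reads in either group.

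Regulators of the neural plate and forebrain rose. Of 17 tested genes of this list, 14 were higher and 1 lower in ectoderm, against 47.3% and 38.8% over all genes tested. The median log2 fold change was 4.15 against 0.21 over all genes tested. It was 3.94 when genes at the detection limit in hESC were set to their lower bounds. PAX6, a paired-box factor of the neural plate (chr11:31789026-31817961, GRCh38.p14), had 0, 0, 0 and 0.891 CPM in hESC replicates 1 to 4 and 825, 844, 752 and 929 CPM in ectoderm replicates 1 to 4. All 4 ectoderm libraries were therefore above all hESC libraries, and the increase was at least 565-fold (adjusted p 1.97e-18, edgeR).

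FEZF1, a zinc finger repressor of the early forebrain, went from 4.38, 1.97, 1.48 and 1.34 CPM to 2081, 2076, 2238 and 2174 CPM. This is a log2 fold change of 9.81 ± 0.17 (SE, adjusted p 1.42e-21) with ectoderm libraries within a narrow range. EMX2, a homeobox gene of the dorsal telencephalon, had at most 1 read in any hESC library and 104, 103, 88.5 and 107 CPM in ectoderm, at least 67.9-fold higher (adjusted p 8.72e-14). SOX1, which marks committed neural plate, rose from 1.59, 1.97, 0.988 and 2.67 to 186, 195, 179.8 and 179.7 CPM (log2 fold change 6.63 ± 0.24, adjusted p 6.43e-15).

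SIX3 and OTX2, which pattern the anterior neural plate, were already present in hESC. SIX3 rose from 41.0, 43.4, 45.0 and 41.0 CPM to 267, 278, 256 and 292 CPM, a log2 fold change of 2.68 ± 0.09. OTX2 rose from 20.7, 30.6, 27.7 and 23.2 CPM to 399.7, 379, 422 and 381 CPM, a log2 fold change of 3.94 ± 0.10. The probes of OTX2 differed, with log2 fold changes of 5.79, 2.86 and 2.85, and the probe with the most reads alone gave 3.06. In both genes, the lowest ectoderm library was above the highest hESC library.

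The nuclear receptors NR2F1 and NR2F2, known as COUP transcription factors that pattern the forebrain, were at or near 0 in hESC. NR2F2 had at most 1 read in any hESC library and 602, 665, 523 and 639 CPM in ectoderm, at least 409.8-fold higher. NR2F1 had no read in hESC and 22.0, 19.9, 21.1 and 23.0 CPM in ectoderm, at least 14.5-fold higher (adjusted p 5.49e-11). DACH1, a retinal determination factor, rose from 1.99, 0.987, 0.988 and 0.891 CPM to 644, 674, 532 and 627 CPM (log2 fold change 8.94 ± 0.21).

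The zinc finger genes of the ZIC family differed in size of change. ZIC1 rose from 168, 166, 155 and 149.6 to 1371, 1366, 1292 and 1453 CPM, a log2 fold change of 3.10 ± 0.10, and ZIC4 by 4.15 ± 0.27. ZIC2, at 1521, 1630.2, 1634 and 1641 CPM in hESC and 1816, 2025, 1874 and 1857 CPM in ectoderm, had a log2 fold change of only 0.24 ± 0.06 (adjusted p 0.00108), which no longer passed the threshold without hESC replicate 4 or without any of ectoderm replicates 1, 2 and 4. ZBTB16, a zinc finger gene of neural progenitors, was at least 27.6-fold higher, and SOX11, a partner of SOX2 in later neural cells, had a log2 fold change of 2.79 ± 0.09.

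GBX2, which marks the anterior hindbrain and opposes OTX2, was the only listed gene of the neural plate that fell. It was at 695, 743, 772 and 817 CPM in hESC and 58.0, 63.8, 47.9 and 59.6 CPM in ectoderm, a log2 fold change of -3.71 ± 0.12 (adjusted p 1.90e-17). HESX1, a forebrain homeobox gene, was at 52.9, 68.1, 58.8 and 75.7 CPM in hESC and 84.0, 77.0, 58.0 and 95.1 CPM in ectoderm and was not called (adjusted p 0.0712); it was called with median-ratio or reference gene scaling, with DESeq2, with a replicate block, and without ectoderm replicate 3.

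The rule for the 12 largest increases also took genes outside this list. SMOC1, a secreted protein that antagonizes BMP signalling, rose from 1.19, 1.65, 0.988 and 1.78 CPM to 1726, 1669, 1788 and 1802 CPM (log2 fold change 10.22 ± 0.17). GREB1L, a gene related to the estrogen-regulated GREB1, rose from 0, 0.987, 0.988 and 2.67 CPM to 403, 379, 433 and 397 CPM (log2 fold change 8.43 ± 0.22, or 9.02 without hESC replicate 4). For both, every ectoderm library was above every hESC library, which the rule required. GPC3, a cell surface heparan sulfate proteoglycan that was chosen after its values were seen, rose from 1422, 1457, 1371 and 1426 CPM to 39642, 37754, 35107 and 38414 CPM, a log2 fold change of 4.73 ± 0.07, and took 4.02% of all ectoderm reads.

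**Figure D3:**
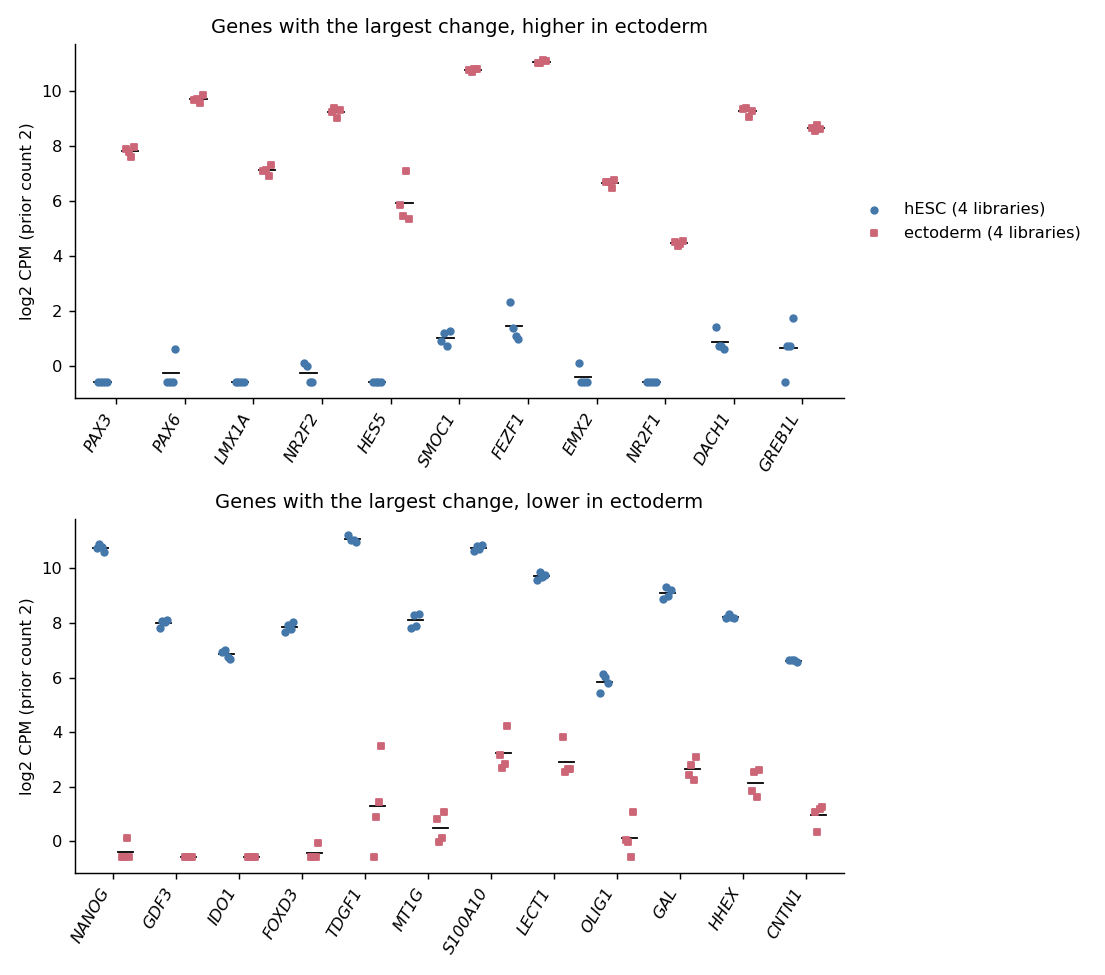
Log2 CPM (prior count 2) of 11 of the 12 genes with the largest increase (top) and the 12 with the largest decrease (bottom), with each of the 4 hESC libraries as a circle, each of the 4 ectoderm libraries as a square and the mean of the log2 values as a black line. The rule that chose the 23 genes required groups that do not overlap, which held for 325 of the 387 genes tested (84%).

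Border genes that lead to roof plate and neural crest were split. Of 9 tested, 5 were higher and 3 lower in ectoderm, against 47.3% higher and 38.8% lower over all genes tested. The median log2 fold change was 1.82. PAX3, which marks the neural plate border and dorsal neural tube (chr2:222199887-222298998), had no read in any hESC library and 237, 222, 194 and 248 CPM in ectoderm, at least 152-fold higher (adjusted p 7.13e-16). LMX1A, the LIM homeobox factor of the roof plate and of midbrain dopamine precursors (chr1:165201867-165356715), likewise had no read in hESC and 138, 141, 119 and 158 CPM in ectoderm, at least 93.9-fold higher (adjusted p 2.13e-16). SNAI2, a repressor that acts in crest delamination, rose from 2.78, 1.97, 0.494 and 2.23 to 46.5, 50.8, 55.2 and 53.9 CPM, a log2 fold change of 4.71 ± 0.21.

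The crest factor SOX10 rose from 1.59, 5.92, 1.98 and 4.01 CPM to 17.7, 18.3, 25.6 and 18.5 CPM, a log2 fold change of 2.48 ± 0.33. MSX1, a target of BMP signalling at the border, was at 9.73, 8.12, 9.74 and 6.53 CPM in ectoderm against 4116 ± 348 (SD, n = 4) CPM in mesoderm. It was called higher than in hESC, by 1.50 to 2.44 on the log2 scale over the alternatives tried. The probes of MSX1 gave 1.99, 1.82 and 0.80, of which only the probe at 1.82 passed the test. FOXD3 serves both pluripotent cells and early neural crest. It went from 204, 243, 217 and 259.6 CPM in hESC to at most 1 read in any ectoderm library, at least 189.8-fold lower (adjusted p 2.19e-18). ETS1, a crest and endothelial factor, fell by 3.57 on the log2 scale.

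No tested gene of the ventral neural tube list rose, and 3 of 6 fell, against 47.3% higher and 38.8% lower over all genes tested. With reference gene scaling, 1 rose and 2 fell. OLIG1, a basic helix-loop-helix gene of the oligodendrocyte lineage, went from 42.6, 68.8, 64.7 and 54.8 CPM in hESC to 0.36, 0.301, 0 and 1.42 CPM in ectoderm (log2 fold change -6.54 ± 0.38, or -7.84 without ectoderm replicate 4). Its neighbour OLIG2 was at 22.3, 27.6, 21.2 and 21.4 and 11.9, 14.1, 16.2 and 13.3 CPM, a smaller change (-0.75 ± 0.18) that was not called with reference gene scaling. FOXA2, which marks floor plate and endoderm, had at most 9 reads in any hESC library and 1 in ectoderm, at least 1.83-fold lower. SHH, the floor plate signal, did not have enough reads to test.

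Neural progenitor genes rose for 9 of 11 tested members, against 47.3% higher over all genes tested. Their median log2 fold change was 2.58. HES5, a target of Notch signalling that keeps progenitors from differentiating, had no read in hESC and 57.7, 43.6, 138 and 40.3 CPM in ectoderm, at least 47.2-fold higher (adjusted p 0.00451). Replicate 3 was the highest, and without it the fitted call held. The ligand that activates Notch, DLL1, rose from 94.3, 101, 107 and 117 CPM to 1231, 1224, 1022 and 1259 CPM (log2 fold change 3.50 ± 0.09). FABP7, a fatty acid binding protein of radial glia, rose from 49.3, 56.0, 51.4 and 50.3 CPM to 694, 709, 638 and 744 CPM (3.75 ± 0.10).

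The intermediate filament genes NES and VIM had log2 fold changes of 1.87 ± 0.08 and 3.75 ± 0.08. For VIM the hESC libraries were at 264, 303, 289 and 262 CPM and the ectoderm libraries at 3699.8, 3910.0, 3968 and 3497 CPM. CDH2, or N-cadherin, and NCAM1, adhesion molecules of neural epithelium, rose by 1.83 ± 0.07 and 1.72 ± 0.11. CD24, a surface glycoprotein that neural and pluripotent cells both carry, was the listed member that fell, from 46055, 37066, 39517 and 37285 CPM to 5478, 5626, 4889 and 5688 CPM. Its log2 fold change was -2.88 ± 0.08, and its 3 probes gave values between -3.07 and -2.73.

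Neuronal genes moved both ways: 9 of 20 tested were higher and 8 lower, a split close to that of the panel, and 11 listed genes did not have enough reads to test. MAP2, a microtubule protein of dendrites, rose from 37.0, 38.2, 42.0 and 33.4 CPM to 702, 658, 674 and 692 CPM (log2 fold change 4.18 ± 0.12). TUBB3, the tubulin used to stain neurons, went the other way, from 1287, 1488, 1362 and 1577 CPM to 112, 116, 91.7 and 134 CPM (-3.65 ± 0.23, adjusted p 7.85e-10); it rests on a single tested probe. NEUROG2, a proneural factor, had at most 1 read in hESC and 24.9, 21.4, 15.8 and 23.8 CPM in ectoderm, at least 14.5-fold higher.

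DCX, which marks young neurons, did not pass the test at 9.15, 6.91, 7.90 and 7.57 CPM in hESC and 7.93, 10.2, 8.93 and 12.2 CPM in ectoderm (adjusted p 0.159); with reference gene scaling it was called (log2 fold change 0.96, adjusted p 5.15e-04). Among genes of mature neurons, PPP1R1B, the phosphatase inhibitor DARPP-32, fell from 205, 239.9, 202 and 214 to 3.96, 4.81, 3.65 and 3.97 CPM, and the synaptotagmin gene SYT6 from 128, 116, 129.9 and 127 to 25.2, 20.5, 18.7 and 24.1 CPM. The vesicle protein gene SYP was at least 8.84-fold lower, and RBFOX3, the NeuN antigen, fell by 1.21 on the log2 scale. NTRK2, a neurotrophin receptor, had no read in hESC and 10.5, 8.72, 13.8 and 11.9 CPM in ectoderm, while the adhesion molecule gene NRCAM rose by 2.40 ± 0.21 on the log2 scale. The transmitter genes SLC17A7, GAD1 and SST were each called higher and reached at most 36.1, 8.52 and 11.1 CPM in an ectoderm library.

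**Figure D4:**
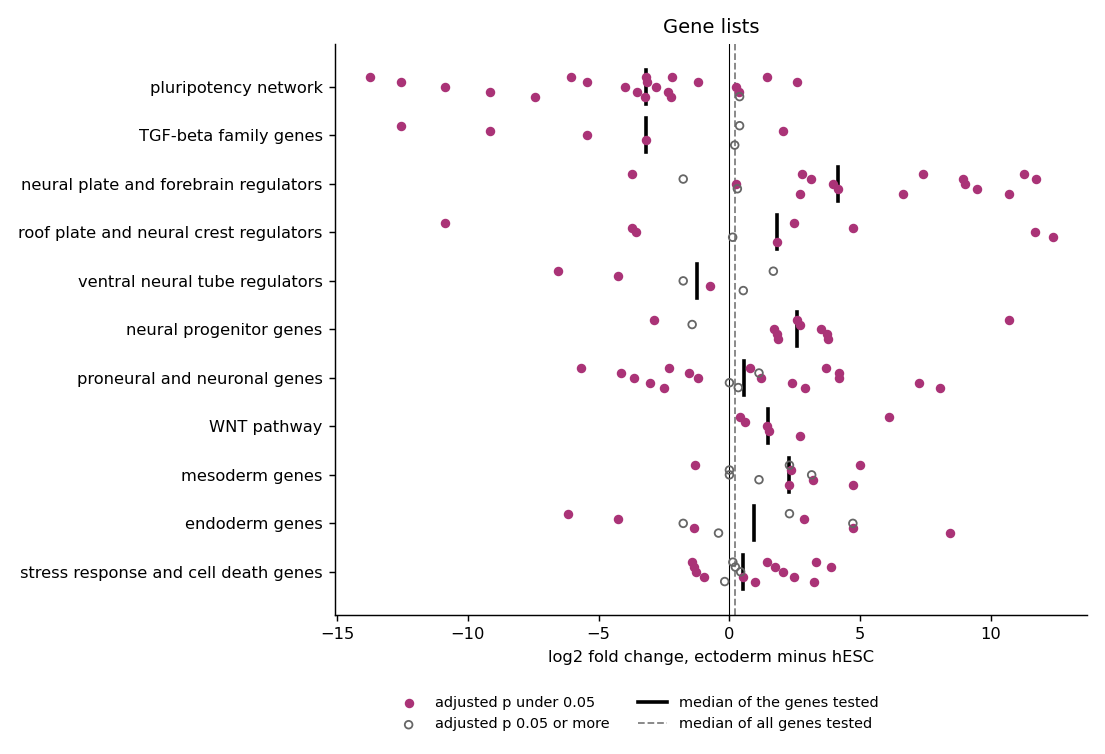
Log2 fold change of ectoderm against hESC for each tested gene of 11 lists (points, filled where the adjusted p is under 0.05), with the median of each list as a black bar and the median of all 387 genes as a dashed line. The neural plate and progenitor lists lie mostly to the right of 0, the pluripotency and TGF-beta lists mostly to the left, and the neuronal list on both sides. Some genes are in several lists, and most of the TGF-beta genes are also in the pluripotency list.

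The pluripotency network fell for 17 of 22 tested genes and rose for 4, against 38.8% lower and 47.3% higher over all genes tested. Its median log2 fold change was -3.17 (-2.84 with genes at the detection limit set to their bounds). Without ectoderm replicate 4, 18 of 23 fell and 3 rose. NANOG, a homeobox factor of the pluripotent state (chr12:7789402-7799146), was at 1725, 1885, 1773 and 1542 CPM in the hESC libraries. Its 4 ectoderm libraries together held 1 read, so it was at least 1422-fold lower (adjusted p 2.75e-21), and all 3 of its probes fell.

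The 250 bases before the NANOG start site are shown because they hold a joined OCT4 and SOX2 site, through which both factors are known to activate the gene. The sequence is from RefSeq (GRCh38.p14, chr12:7789152-7789401, plus strand), and the capitals mark the match to TTTGCAT, any base, and ACAATG, searched on both strands.

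NANOG: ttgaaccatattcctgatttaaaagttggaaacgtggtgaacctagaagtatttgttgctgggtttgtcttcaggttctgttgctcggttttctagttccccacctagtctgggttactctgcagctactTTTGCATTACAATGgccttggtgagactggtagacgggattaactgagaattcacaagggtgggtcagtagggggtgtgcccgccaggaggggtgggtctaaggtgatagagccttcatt

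The match begins 120 bases before the start site, and 2 of 35116 promoter windows of the same length (0.00570%) held it. The RNA for the partners of this site moved in opposite directions. POU5F1, which encodes OCT4, had few reads with its single probe, 7.56, 4.28, 8.40 and 9.80 CPM in hESC and no read in ectoderm, at least 6.17-fold lower (adjusted p 5.37e-07). Counts of POU5F1 are uncertain because it has near-identical pseudogenes. SOX2, the SOX factor shared by pluripotent and neural cells, rose from 1032, 982, 948 and 1009 CPM to 6274, 5763, 5861 and 5779.8 CPM, a log2 fold change of 2.58 ± 0.13 (adjusted p 2.53e-13), and its 3 probes each rose by 2.16 to 2.63.

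Other genes of the network that fell included chromatin and RNA-binding factors. DNMT3B, a de novo DNA methyltransferase, went from 2674, 3253, 3179.8 and 3277 CPM to 327, 355, 295 and 361 CPM (log2 fold change -3.21 ± 0.09). DPPA4 and its partner DPPA2 had log2 fold changes of -2.35 ± 0.08 and -2.80 ± 0.12, and L1TD1, an RNA-binding protein of pluripotent cells, -3.52 ± 0.07. ZFP42, also called REX1, JARID2, a cofactor of Polycomb, and NR5A2, a nuclear receptor, changed by -2.25, -2.21 and -6.07 on the same scale. CD9, a tetraspanin of the stem cell surface, fell from 4031, 3268, 3218 and 3312 CPM to 198, 198, 247 and 235 CPM.

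The 4 that rose were SOX2, SALL4, LIN28A and LIN28B. SALL4, a zinc finger factor, rose from 405, 425, 447 and 370.0 CPM to 1065, 1185, 1135 and 1042 CPM (log2 fold change 1.43 ± 0.09). The RNA-binding protein gene LIN28A, whose product blocks let-7 maturation, was at 4253, 4729, 4623 and 4261 CPM in hESC and 5545, 5765, 6559 and 5322 CPM in ectoderm (0.38 ± 0.06). The call of its relative LIN28B (0.23 ± 0.08) was lost under 8 of the alternatives tried.

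Of 7 tested TGF-beta family genes on the panel, 4 were lower and 1 higher in ectoderm, against 38.8% and 47.3% over all genes tested. NODAL, LEFTY1, LEFTY2, TDGF1 and GDF3 are also in the pluripotency list, so the falls in these lists are not separate results. The median log2 fold change was -3.20. Without ectoderm replicate 4, 5 of 7 were lower and the median was -6.01; with reference gene scaling, 4 were lower and 2 higher. Among ligands, GDF3, a Nodal-like ligand of pluripotent cells (chr12:7689784-7695775), was at 226, 266, 264 and 273 CPM in hESC and had no read in any ectoderm library, at least 211-fold lower (adjusted p 8.78e-18). NODAL itself had few reads, at 7.16, 11.2, 9.39 and 8.02 CPM in hESC and at most 2 reads in an ectoderm library, at least 7.34-fold lower. TDGF1 (CRIPTO in current nomenclature), the coreceptor of Nodal, went from 2384, 2116, 2109 and 2015 CPM to 0, 1.20, 2.03 and 10.5 CPM. The highest ectoderm value is in replicate 4, and the log2 fold change was -9.14 ± 0.37 with it and -11.06 without it. GDF15, a distant member of the family that responds to cell stress, rose from 55.7, 65.5, 56.8 and 54.8 CPM to 254, 233, 201 and 269 CPM (2.04 ± 0.12).

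The Nodal inhibitors turn on ectoderm replicate 4. LEFTY1 was at 75.2, 82.0, 72.6 and 85.9 CPM in hESC, and its log2 fold change was -3.20 ± 0.57 (adjusted p 1.48e-04) with all libraries and -6.01 (adjusted p 8.25e-14) without replicate 4. LEFTY2 was at 50.1, 60.2, 47.9 and 53.0 CPM in hESC and was not called with all libraries (0.39 ± 0.97, adjusted p 0.717). Without replicate 4 its log2 fold change was -2.51 (adjusted p 0.00509). LEFTY1 and LEFTY2 are close copies, and how the counting separated them is not given in the sources used here.

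Among genes known to respond to SMADs, ID1, a direct target of BMP signalling through SMAD1 and SMAD5, was not called. It was at 41.4, 43.1, 37.5 and 43.6 CPM in hESC and 37.8, 34.6, 50.3 and 38.3 CPM in ectoderm (log2 fold change -0.05 ± 0.16, adjusted p 0.772), and the sign of this difference changed with the scaling. Of 7 tested genes of that list 3 were lower, namely NANOG, NODAL and LEFTY1, and MSX1 was higher. NANOG, NODAL and LEFTY1 are also in the pluripotency list. Over all genes tested, 38.8% were lower and 47.3% higher. Without ectoderm replicate 4, 4 of the SMAD list were lower.

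All 6 tested genes of the WNT pathway were higher, against 47.3% of all genes tested. Their median log2 fold change was 1.46. FRZB, a secreted inhibitor of WNT, rose from 23.1, 26.3, 28.7 and 30.3 CPM to 1857, 1873, 1545 and 2087 CPM (log2 fold change 6.09 ± 0.12). SFRP1, another secreted inhibitor, rose by 0.41 ± 0.06. The receptor genes FZD5, FZD3, ROR2 and FZD7 had log2 fold changes of 2.69, 1.50, 1.42 and 0.60. Of 4 tested genes of the FGF, SHH and Notch list, HES5 and DLL1 rose and DUSP6 and SPRY2 fell. Over all genes tested, 47.3% were higher and 38.8% lower. DUSP6, a phosphatase of ERK, went from 914, 879.8, 866 and 810.0 CPM to 88.3, 106, 100.3 and 96.8 CPM (-3.15 ± 0.08) and SPRY2, a feedback inhibitor, fell by 1.35 on the log2 scale.

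Several markers of mesoderm and surface ectoderm had few reads in ectoderm. HAND1, a mesoderm factor, and TP63, the master factor of stratified epithelium, had no read in any ectoderm library, CDX2 and KRT14 had at most 1, and the brachyury gene T (TBXT) was at 5.05, 7.52, 7.71 and 9.37 CPM against 1523 ± 121 (SD, n = 4) CPM in mesoderm. T was nevertheless called higher than in hESC, where it was at 1.19, 1.65, 1.98 and 0.891 CPM. The summed level of KRT14 and TP63 was at most 0.406 CPM in ectoderm, 0.359 CPM in endoderm and 0 in hESC and mesoderm. No culture here shows that the probes of KRT14 and TP63 detect their genes, so their absence from ectoderm cannot be interpreted. Of 11 tested mesoderm genes, 5 were higher and 1 lower, against 47.3% higher and 38.8% lower over all genes tested. The largest called change was that of COL2A1, a cartilage collagen that neuroepithelium also expresses, from 36.2, 35.9, 35.1 and 26.7 CPM to 1059.9, 1065, 1072 and 1098 CPM (5.00 ± 0.09). PDGFRA was also called higher under every alternative tried, and KDR, a receptor of VEGF, fell by 1.33 on the log2 scale. Summed over the mesoderm list, levels were 1224 to 1289 CPM in ectoderm, 257 to 268 CPM in hESC and 4204 to 4854 CPM in mesoderm.

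Of 10 tested endoderm genes, 3 were higher and 3 lower, against 47.3% higher and 38.8% lower over all genes tested. HHEX, a homeobox gene of anterior endoderm, was at 289, 319, 296 and 289 CPM in hESC and 2.88, 5.11, 2.44 and 5.39 CPM in ectoderm. Its log2 fold change was -6.16 ± 0.16, or -6.48 without ectoderm replicate 4. FOXA1 fell by 1.34 on the log2 scale. The increases of NPPB and GATA6 started from at most 1 read in hESC and were highest in ectoderm replicate 4. NPPB rose at least 9.43-fold, and for GATA6 the increase was at least 2.37-fold. Without replicate 4 these bounds were 5.49-fold for NPPB and 1.24-fold for GATA6. SOX17 was not called (adjusted p 0.0551) and had reads only in ectoderm replicates 3 and 4. It was called with reference gene scaling and without ectoderm replicate 1 or 2 (smallest adjusted p 0.0208). CYP26A1, which degrades retinoic acid, went from 212, 241, 229 and 242 CPM to 12.6, 12.3, 10.6 and 34.1 CPM, a log2 fold change of -3.68 ± 0.25 with replicate 4 and -4.40 without it.

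Epithelial genes split as well. GRHL3, a grainyhead factor of surface ectoderm and of closing neural folds, rose from 1.59, 0.658, 0.494 and 0 CPM to 209.7, 203, 139 and 225 CPM (log2 fold change 8.01 ± 0.29, or 8.70 without hESC replicate 1). EPCAM, an epithelial adhesion molecule of stem cells, fell from 2282, 2278, 2265 and 2223 CPM to 199, 187, 151 and 228 CPM (-3.56 ± 0.09), and the keratin gene KRT18 fell by 1.84 on the log2 scale.

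The mesoderm and endoderm cultures show which increases set the ectoderm apart. Against mesoderm 339 of 387 genes were called (87.6%) and against endoderm 335 (86.6%), in a fit that shares the ectoderm libraries. Higher in ectoderm were 44.4% and 43.4% of the genes tested, and lower were 43.2% in either comparison. These calls use TMM. Against endoderm, library totals alone shifted log2 fold changes by a median of 0.49 and gave 16 called genes the other sign. Upper-quartile factors shifted them by 0.34 and gave 8 called genes the other sign. Of the 183 genes that were higher than in hESC, 111 were also called higher than in both other lineages, and 78 of the 150 lower genes were called lower than in both. For the neural plate list, 11 of 17 were higher than in hESC and both lineages (64.7%), against 28.7% of all genes tested. FEZF1, EMX2, SOX1 and SOX2 averaged at most 5.87 CPM in mesoderm and in endoderm.

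Other neural regulators were shared with endoderm. PAX6 was at 154 ± 12.6 (SD, n = 4) CPM in endoderm, below ectoderm by a log2 fold change of 2.44 (adjusted p 2.22e-13), and had no read in mesoderm. LMX1A was at 322 ± 11.8 (SD, n = 4) CPM in endoderm, above ectoderm (ectoderm minus endoderm -1.21, adjusted p 4.99e-09), and OTX2 at 1300.1 ± 38.8 (SD, n = 4) CPM, also above ectoderm (-1.72, adjusted p 4.93e-15). SIX3 was at 152 ± 9.14 (SD, n = 4) CPM there, below ectoderm. SNAI2 was highest in mesoderm, at 433 ± 31.0 (SD, n = 4) CPM.

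**Figure D5:**
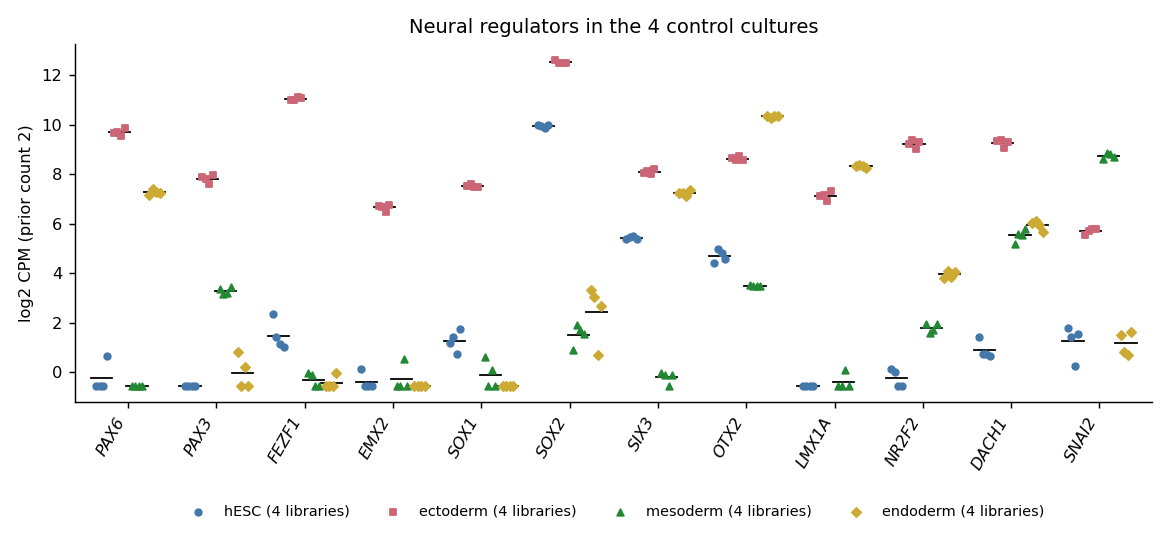
Log2 CPM (prior count 2) of 12 neural regulators in the 4 libraries each of hESC, ectoderm, mesoderm and endoderm (points), with the mean of the log2 values as a black line. FEZF1, EMX2, SOX1 and SOX2 are highest in ectoderm, LMX1A and OTX2 are higher in endoderm, and SNAI2 is higher in mesoderm.

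The 12 largest decreases also took MT1G, a metallothionein, from 228, 313, 238 and 325 CPM to 1.08, 0.301, 0.406 and 1.42 CPM (log2 fold change -8.31 ± 0.28, or -8.90 without ectoderm replicate 4). Metallothioneins are small proteins that bind zinc and copper, and their genes are switched on by the zinc sensor MTF1 at metal response elements. The other metallothioneins of the panel, MT1X, MT2A and MT1F, looked at after the values were seen, fell by 5.34, 2.95 and 2.77 on the log2 scale. MT1X was at 865, 1383, 1099 and 1472 CPM in hESC and 31.0, 23.5, 21.9 and 41.2 CPM in ectoderm, and MT2A at 389.8, 585, 462 and 529 and 63.4, 62.9, 58.0 and 69.3 CPM. These genes are near-identical copies with 1 probe each, so how reads were divided among them is uncertain.

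The promoters of MT1X and MT2A are shown because genes of the family moved together. The 250 bases before each start site are from RefSeq (GRCh38.p14, plus strand, chr16:56682220-56682469 and chr16:56608334-56608583). Capitals mark matches to the metal response core in 2 spellings, TGCACNC and TGCGCNC, searched on both strands with no overlaps between them.

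MT1X: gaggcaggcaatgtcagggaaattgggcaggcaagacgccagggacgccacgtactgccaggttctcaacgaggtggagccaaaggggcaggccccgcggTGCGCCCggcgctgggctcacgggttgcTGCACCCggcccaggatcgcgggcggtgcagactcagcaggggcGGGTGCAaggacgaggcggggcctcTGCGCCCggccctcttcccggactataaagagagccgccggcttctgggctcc

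MT2A: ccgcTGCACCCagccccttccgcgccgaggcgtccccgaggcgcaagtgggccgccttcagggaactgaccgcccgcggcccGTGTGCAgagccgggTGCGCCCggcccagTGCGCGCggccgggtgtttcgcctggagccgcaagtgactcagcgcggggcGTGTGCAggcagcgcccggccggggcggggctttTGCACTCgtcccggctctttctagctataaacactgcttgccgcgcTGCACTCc

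The MT1X window holds 4 matches and that of MT2A 7. At least 4 were found in 0.370% of the 35116 windows and at least 7 in 0.0313%. Such a match is a description of the letters and not evidence of binding.

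The remaining genes of the 12 largest decreases were of mixed function. IDO1, which degrades tryptophan, was at 123, 129, 108 and 101 CPM in hESC and had no read in ectoderm, at least 94.7-fold lower. S100A10, a partner of annexin A2, went from 1585, 1806, 1667 and 1872 CPM to 8.29, 5.71, 6.49 and 17.9 CPM, and LECT1 (CNMD), which encodes the cartilage protein chondromodulin, from 766, 934, 828 and 863 CPM to 13.3, 5.11, 5.68 and 5.68 CPM. Their log2 fold changes were -7.44 ± 0.19 and -6.85 ± 0.22; that of S100A10 was -8.11 without ectoderm replicate 4. GAL, the neuropeptide galanin, fell from 469, 635, 509 and 593 CPM to 4.69, 6.32, 4.06 and 7.95 CPM. Its log2 fold change was -6.53, or -6.87 without ectoderm replicate 4. CNTN1, a neural adhesion molecule, fell from 99.4, 99.7, 98.8 and 93.5 CPM to 1.44, 0.602, 1.62 and 1.70 CPM. The rule that chose these 5 genes required groups that do not overlap.

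Of 17 tested stress response and cell death genes, 9 were higher and 4 lower, against 47.3% higher and 38.8% lower over all genes tested. With median-ratio factors 11 were higher and with reference gene scaling 13, with 4 lower in either. GADD45A, which responds to DNA damage, went from 313, 343, 331 and 353 CPM to 3183, 3181, 2885 and 3389.5 CPM (log2 fold change 3.24 ± 0.08), and CDKN1A, which encodes the cell cycle inhibitor p21, from 52.5, 54.6, 51.4 and 64.6 CPM to 296, 316, 285 and 326 CPM (2.46 ± 0.15). The death receptor genes FAS and TNFRSF10B and the BH3 gene BBC3 rose by 3.88, 1.73 and 1.43 on the log2 scale.

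TXNIP, an inhibitor of thioredoxin that responds to glucose, rose from 83.5, 83.6, 94.4 and 85.1 CPM to 844, 882, 852 and 848 CPM. Of the unfolded protein and integrated stress response, ATF4 fell by 1.27 on the log2 scale, whereas DDIT3 and HSPA5 had small increases (0.52 ± 0.15 and 0.98 ± 0.35). Their calls were lost when single libraries were left out. For HSPA5 ectoderm replicate 3 was the highest, at 590.2 CPM against 279.6 to 348.5 CPM in the others, and without it the log2 fold change was 0.66. TOP2A, a topoisomerase of dividing cells, rose by 0.97 ± 0.08. It is 1 of 4 tested cell cycle genes, of which 2 were higher, 1 was lower and 1 was not called. The other that was higher is the inhibitor gene CDKN1A, and over all genes tested 47.3% were higher and 38.8% lower.

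LDHA, lactate dehydrogenase, and ALDOC, an aldolase of glycolysis, were chosen after their values were seen. LDHA fell from 5033, 3954, 3795 and 4243 CPM to 440.0, 391, 694 and 373 CPM and ALDOC from 1381, 1588, 1477 and 1572 CPM to 188, 173, 140.0 and 189 CPM. Of the reference genes, the glycolytic GAPDH and PGK1 fell by 1.63 and 2.00 on the log2 scale and ACTB by 0.64, while RPL13A and EEF1A1, of the translation machinery, rose by 0.61 and 0.59. The change of ACTB was not called when the libraries were scaled on these reference genes. RPS19, a ribosomal protein, took 21.7% of the reads in ectoderm and 9.13% in hESC. Its probes 614 and 616 rose by 1.18 and 1.09 on the log2 scale, and probe 615, with at most 28 reads in a library, fell by 1.93.

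Of 13 tested adhesion and cytoskeleton genes, 8 rose and 4 fell, against 47.3% higher and 38.8% lower over all genes tested. TAGLN and TPM1, actin-binding genes, rose from 435, 556, 447 and 499 to 2988, 2774, 2406 and 3406 CPM and from 1391, 1634, 1534 and 1604 to 7019, 6594, 5799.7 and 7759 CPM. Of 6 tested immune genes, 2 were higher and 4 lower, to be read against the same shares. LCK, a kinase best known in T cells, went from 54.1, 70.8, 57.8 and 66.3 CPM to 2.16, 2.11, 3.65 and 0.852 CPM, and the interferon-induced gene IFITM1 fell by 2.02 on the log2 scale. TNFSF9, the ligand of 4-1BB, rose from 5.17, 5.92, 7.90 and 8.02 CPM to 67.8, 70.4, 64.1 and 65.0 CPM.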

How the data were processed

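Per the labels, the authors counted reads for each probe with a custom aligner and deposited these counts without normalization. DESeq2 and hg38 are named in the submitters' processing notes without a role. The aligner's settings and the probe sequences are not given in the sources used here, and reads carry no stated molecular identifiers, so PCR copies were counted. Counts were summed per gene; 16 columns that matched no sample label were not used.

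Genes were filtered with filterByExpr, scaled by TMM and tested with edgeR 4.0.16 (R 4.3.3), robust quasi-likelihood, two-sided, with Benjamini-Hochberg adjustment over all genes and a threshold of 0.05. The 16 control libraries shared the fit. Standard errors were derived from the fold change and its F statistic. Where no library of a group exceeded 3 reads, the fold is a bound against 3 reads in its shallowest library. The test was tested on simulated counts. No 2 libraries of a group agreed within counting noise (chi-square per degree of freedom 7.88 to 69.5). The members and gene lists were chosen with earlier results of these data known. Named genes were the 12 largest changes each way with an adjusted p under 0.05, groups that do not overlap and 50 or more reads on average in the higher group, and genes of the lists; some of these are not reported here. Alternatives were other scalings and filters, DESeq2 1.42.0, the 8 libraries alone, single probes, a replicate block and each library left out. Promoters and gene positions come from RefSeq (GRCh38.p14), where all 3 promoters looked for were found.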

Additional observations from a re-analysis of the deposited data

Results flagged for a closer look

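In each group of 4 libraries, the library farthest from its neighbours was compared with the range of the group for totals, composition and every gene named above with more than 3 reads in a library. It exceeded Dixon's 95% critical value for 4 libraries in 18 of 233 cases (7.73%), where chance gives about 5%. Values are log2 CPM, with the range of the other 3 libraries.

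Ectoderm replicate 4 was high in 3 genes of endoderm cultures: GATA6 at 3.20 against 1.20 to 1.48, NPPB at 5.01 against 3.04 to 3.23, and CYP26A1 at 5.12 against 3.49 to 3.73. Ectoderm replicate 3 was high in SOX10, at 4.71 against 4.20 to 4.26, and low in DLL1, at 10.00 against 10.26 to 10.30. Ectoderm replicate 1 was high in LECT1, at 3.81 against 2.53 to 2.67, and in L1TD1, at 8.22 against 8.07 to 8.09.

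In hESC, replicate 1 was high in DACH1, at 1.42 against 0.65 to 0.74, in CD9, at 11.98 against 11.65 to 11.69, and in EEF1A1, at 15.11 against 14.73 to 14.75. The same library was low in DNMT3B, at 11.39 against 11.64 to 11.68, and in ZIC2, at 10.57 against 10.67 to 10.68. Replicate 2 was low in SYT6, at 6.86 against 7.00 to 7.03. Replicate 3 was low in FOXA2, at 0.23 against 1.74 to 1.86, where at most 9 reads were counted, and high in TXNIP, at 6.57 against 6.40 to 6.42. Replicate 4 was low in CNTN1, at 6.56 against 6.64 to 6.65, in COL2A1, at 4.78 against 5.16 to 5.20, and in FOXA1, at 5.58 against 5.89 to 5.94.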

How the results depend on the processing

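The number of genes called against hESC was 333 and lay between 238, with at least 10 reads required in each of the 8 libraries, and 349, without a filter. Leaving out single libraries gave 325 to 333. Testing probes instead of genes gave 738 calls among 903 probes. Scaling on reference genes shifted the median of all genes by 0.62 (log2) and gave the other sign to 18 called genes, none of them named above; upper-quartile factors moved it by -0.11. The difference in the share of the 10 highest genes was 2.94 percentage points and ranged from 2.59 to 3.52 without single libraries. With any 1 ectoderm library left out, the exact test of this difference did not pass 0.05. The ectoderm libraries still stood above all hESC libraries, at no less than 62.2% against no more than 61.9%. Fewer libraries allow fewer splits, so this loss does not show a weaker difference. LEFTY2, at 0.39, ranged from -2.51 (without ectoderm replicate 4) to 0.64 without single libraries and was negative with a replicate block (-0.33). ID1 changed sign with median-ratio factors (0.018), DESeq2 (0.016), reference gene scaling (0.57) and the highest probe per gene (0.33); the cause was not tested. Replicate numbers did not pair the libraries: same-numbered ones correlated between -0.04 and 0.01, none best with its own number, and the replicate block gave 337 calls. Genes with few reads, such as POU5F1, FOXA2, NODAL and SYP, are limited by depth.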
